A study of Mus musculus with 2 samples.

Results

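Nell2, Nkain4, Gdpd2, Crct1 and Cdsn are 5 mouse genes that were strongly higher in glomeruli of mice with a podocyte deletion of GC-A and p38, and none of them is a usual marker of a glomerular cell type. They were taken because of that difference, so their own differences are a description and not a tested finding. Every probe set annotated with exactly 1 gene symbol that was one of these 5 names was used. This gave 6 probe sets of 34945 with 1 symbol, for 5 of 18193 genes on the arrays. Nell2 had 2 probe sets and the other 4 genes had 1 each.

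The data are signals from 1-colour Affymetrix arrays hybridised with RNA of sieved glomeruli, the filtering units of the kidney, from male C57BL/6J mice. All mice carried both floxed alleles, GC-A fl/fl and p38 fl/fl. The double knockout array held RNA of such mice with Nephrin-Cre as Cre/+, where the nephrin promoter drives Cre recombinase in podocytes, the epithelial cells of the filter, and the floxed exons are removed there. The floxed control array held RNA of such mice with Nephrin-Cre as +/+, read here as the absence of the Cre allele. GC-A is a natriuretic peptide receptor with guanylyl cyclase activity, and p38 is a kinase activated by cell stress. At 2 months of age, both genotypes had been given a 6% NaCl diet for 3 weeks with aldosterone from an osmotic minipump (0.2 µg per minute and kg of body weight). No mice without that load were analysed here. There was 1 array for each genotype, and the number of animals whose RNA it held is not stated in the labels. There is therefore no replicate check, no error and no p-value for any difference given here, and higher and lower describe these 2 samples only.

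The 5 genes have unrelated products. Nell2 encodes a secreted glycoprotein with epidermal growth factor-like and von Willebrand factor C domains, known from neurons, where it acts through the axon guidance receptor Robo3, and from the male reproductive tract, where it acts through the receptor tyrosine kinase Ros1. Nkain4 encodes a small membrane protein of a family that binds the β1 subunit of the sodium pump, the Na,K-ATPase. Gdpd2 encodes a membrane-bound glycerophosphodiester phosphodiesterase, an enzyme that cleaves glycerophosphodiesters, and has been studied in bone-forming osteoblasts. Crct1 encodes a small cysteine-rich protein from the epidermal differentiation complex, a gene cluster whose products build the cornified envelope of skin cells. Cdsn encodes corneodesmosin, the adhesive protein that holds the outermost skin cells together at modified desmosomes.

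Promoter sequence was at hand for 2 of the 5 genes, Gdpd2 and Cdsn, and is shown because the genes were higher together on the same array. RefSeq windows of 300 bases run from 250 before to 50 after a transcription start. Each gene had 2 such windows, and the one with the outermost start is given here in build GRCm38.p6. The Gdpd2 window lies on the + strand at chrX:100729597-100729896 and the Cdsn window on the + strand at chr17:35542851-35543150. Capitals mark matches to the motifs searched.
Gdpd2: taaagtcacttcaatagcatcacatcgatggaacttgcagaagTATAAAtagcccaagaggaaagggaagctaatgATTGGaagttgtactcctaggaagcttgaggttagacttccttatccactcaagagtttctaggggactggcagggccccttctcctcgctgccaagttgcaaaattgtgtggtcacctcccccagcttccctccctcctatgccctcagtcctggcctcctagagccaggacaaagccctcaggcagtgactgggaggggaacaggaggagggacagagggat
Cdsn: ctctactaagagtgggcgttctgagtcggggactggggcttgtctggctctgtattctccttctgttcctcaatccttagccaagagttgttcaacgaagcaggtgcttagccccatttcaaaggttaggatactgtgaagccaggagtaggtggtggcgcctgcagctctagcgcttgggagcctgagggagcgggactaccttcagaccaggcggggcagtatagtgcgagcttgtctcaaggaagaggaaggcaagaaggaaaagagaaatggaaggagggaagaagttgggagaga

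The motifs searched on both strands were AP-1 (TGANTCA), the TATA box (TATAAA), the CCAAT box (CCAAT), the GC box (GGGCGG), TEAD (CATTCC) and the E-box CACGTG, none of which overlapped in these windows. The Gdpd2 window held TATAAA 207 bases before the start and, on the other strand, CCAAT 174 bases before it. In the other 3 of the 4 windows of these genes, none of these letters occurred. Of all 32851 RefSeq windows of the same length, 13.6% held TATAAA, 37.4% CCAAT, 7.81% the AP-1 letters, 35.7% GGGCGG, 14.7% CATTCC and 7.15% CACGTG. GC content was 52.0% in the Gdpd2 window and 53.7% in the Cdsn window printed, and 60.3% and 63.0% in the other window of Gdpd2 and of Cdsn, against a median of 52.7% over all windows.

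Some facts of the arrays touch every value. Signals under a floor of 52.7 were treated as unmeasured and raised to it before log2. A fold computed against such a signal is a lower bound. Of the deleted genes, Npr1, which encodes GC-A, read 102 in the double knockout, against 167 in the control, and Mapk14, taken here as the p38 gene, read 2607 in the double knockout, against 2628 in the control in its brightest probe set. Where these probe sets lie relative to the floxed exons is not given in the sources used here, so they do not check the deletion. Glomerular markers were present on both arrays, with all measured members of the endothelial (19) and mesangial (13) lists higher in the double knockout and medians of 0.76 and 0.85 on the log2 scale. Of all 13290 measured genes, 7454 were above 0 on that scale. All 63 measured markers of glomerular cells together had a median of 0.68, and marker recentring below means that this value was taken from every difference. Podocyte markers had a median difference of 0.51, which was -0.18 under marker recentring, parietal epithelial markers 0.85, proximal tubule markers -0.82 and markers of later tubule segments -0.67. Podocyte markers summed to 119124 in the double knockout, against 89763 in the control, and proximal tubule markers to 158023 in the double knockout, against 249532 in the control. In RNA of whole glomeruli, a different number of cells of a type and a different amount of RNA per cell cannot be told apart.

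All 6 probe sets of the 5 genes were brighter in the double knockout, where they read between 147 and 878, than in the control, where they read between 10.7 and 105. The lowest signal in the double knockout (a Nell2 probe set) lay above the highest in the control (Nkain4), which compares different probe sets. In the double knockout all 6 probe sets were above the floor, and in the control 2 were above and 4 below. Taking 1 probe set per gene, all 5 genes were at least 4-fold higher, beside 0.263% of the 13290 measured genes (35 genes). At the 2-fold size the background was 3.53% higher (469 genes) and 2.87% lower (382 genes), and at the 4-fold size 0.0677% lower (9 genes). Because the 5 genes were chosen from these differences, nothing is read from that count or from the lack of overlap between the arrays.

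**Figure D1:**
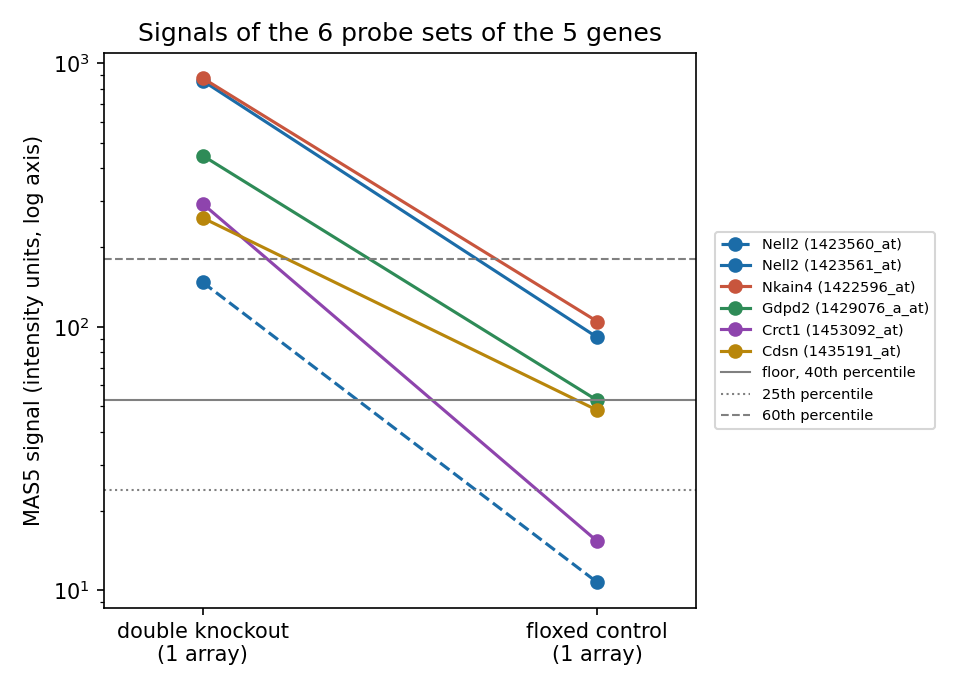
MAS5 signal (log axis) of each of the 6 probe sets on the double knockout array and on the floxed control array, 1 line per probe set, with no error because each genotype had 1 array. Grey lines mark the floor of 52.7 and the other floors tried, 24.1 and 181; in the control, 4 of the 6 probe sets lie below 52.7.

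Nell2, the secreted ligand, read 858 in the double knockout, against 91.1 in the control in its brighter probe set (1423561_at). The difference was 3.23 on the log2 scale, or 9.41-fold, with both signals above the floor. The other Nell2 probe set (1423560_at) read 147 in the double knockout, against 10.7 in the control. Its control signal was below the floor, so its fold of at least 2.80 (1.48 on the log2 scale) is a lower bound, while the deposited signals without a floor gave 3.78 on that scale. Both Nell2 probe sets were higher in the double knockout. Their differences were 1.75 log2 units apart with the floor, the brighter probe set having the larger one, and 0.55 apart without it, the dimmer one then having the larger.

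Nkain4, the sodium pump partner, read 878 in the double knockout, against 105 in the control, which is 8.38-fold higher (3.07 on the log2 scale). Among the 12284 genes above the floor on both arrays, Nell2 had the 2nd and Nkain4 the 3rd largest difference upward. These are the only genes of the 5 with a measured signal on both sides. Their control signals were 1.73 and 1.99 times the floor, so a floor set higher shortens both differences.

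Gdpd2, the phosphodiesterase, read 446 in the double knockout, against 52.5 in the control. The control signal was just under the floor, at 0.998 of it, so the difference of at least 3.08 on the log2 scale (8.47-fold) hardly depended on whether that floor was applied. The deposited signals gave 8.49-fold. The Gdpd2 probe set carries the suffix _a_at, which Affymetrix uses for probes shared by several transcripts of a gene, so the signal does not separate isoforms.

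Both epidermal genes had control signals below the floor. Crct1 read 293 in the double knockout, against 15.3 in the control, which is at least 5.56-fold higher (2.47 on the log2 scale). Its control signal was 0.291 of the floor, and the deposited signals gave 19.1-fold, a size that rests on a signal below what was taken as measured. Cdsn read 259 in the double knockout, against 48.2 in the control, at least 4.92-fold higher (2.30 on the log2 scale) and 5.37-fold from the deposited signals. For Crct1 and Cdsn, the double knockout signal was 5.56 and 4.92 times the floor.

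Of the 35 genes at least 4-fold higher, 27 were above the floor on both arrays, Nell2 and Nkain4 among them, and 8 had a control signal below it, among them Gdpd2, Crct1 and Cdsn. A difference of 4-fold or more downward was reached by 9 genes, 2 of them with a double knockout signal below the floor. Nkain4, Gdpd2, Crct1 and Cdsn have no other probe set annotated with their symbol alone.

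With no replicates, the differences of genes of like brightness give the only view of the spread, and it describes these 2 arrays alone. Among the 500 measured genes nearest to Nell2 in mean log2 signal, differences had a median of 0.13 and a robust SD (scaled median absolute deviation) of 0.43. For Nkain4 the 500 nearest genes had a robust SD of 0.45. The spread was wider near the floor, with a robust SD of 0.52 around Gdpd2, 0.57 around Crct1 and 0.58 around Cdsn. The 5 genes were chosen for these same differences, and Gdpd2, Crct1 and Cdsn reached the floor in the double knockout alone, so nothing is read from their place relative to these genes.

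**Figure D2:**
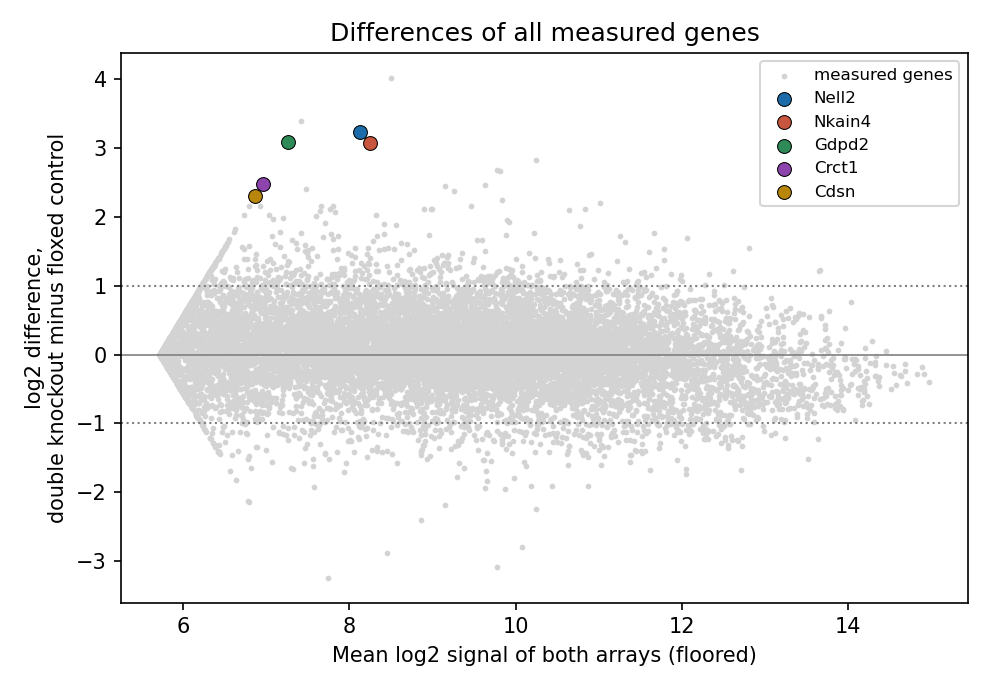
log2 difference (double knockout minus floxed control) against mean log2 signal of both arrays after flooring, for the 13290 measured genes in grey, with the 5 genes in colour and dotted lines at 2-fold either way. Nell2 and Nkain4 lie among brighter genes at 3.23 and 3.07, while Gdpd2, Crct1 and Cdsn lie on the slanted edge that the floor sets at low signal.

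The genes closest to these 5 in mean signal and difference, as a distance over the 2 arrays, included each other. Nell2 and Nkain4 were each other's nearest gene, at 0.20 log2 units, followed for both by the chemokine gene Ccl2 and by Inhbb, which encodes a subunit of activins and inhibins. Nearest to Gdpd2 were Ccl2 at 0.35, Crct1 at 0.68 and the collagen gene Col5a3 at 0.71. Nearest to Crct1 were Cdsn at 0.20, Acap3 at 0.21 and Sprr2f at 0.22. Nearest to Cdsn were Acap3 at 0.01, Sprr2f at 0.02 and the macrophage-associated gene Gpnmb at 0.16. Such likeness rests on at most 2 values per gene. Among Gdpd2, Ccl2, Crct1, Cdsn, Acap3 and Sprr2f, whose control signals were all raised to the floor, it rests on the double knockout signal alone. Their deposited control signals do not enter it, and lay at 15.3 for Crct1, 48.2 for Cdsn, 27.8 for Acap3 and 51.8 for Sprr2f.

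Sprr2f, which encodes a small proline-rich protein of the cornified envelope and lies in the same gene cluster as Crct1, read 255 in the double knockout, against 51.8 in the control. It was at least 4.85-fold higher (2.28 on the log2 scale), with its control signal just below the floor. It was the largest upward difference among 23 measured genes of the cornified envelope and epidermal differentiation complex, of 47 with a named probe set. Of these 23, 3 were past 2-fold upward and 0 downward. Their median was 0.12, beside 0.07 over all measured genes, and was below 0 after removal of the loess trend and under marker recentring. The other higher genes were S100a6, a calcium-binding protein (6012 in the double knockout, against 2087 in the control, 2.88-fold), and Lce1h, a late cornified envelope protein (149 in the double knockout, against 31.9 in the control, at least 2.82-fold). The Lce1h probe set carries the suffix _x_at, which marks probes that can bind other transcripts, and both Lce1h and Sprr2f belong to families of near-identical genes. Under marker recentring the log2 differences were 1.60 for Sprr2f, 0.84 for S100a6 and 0.81 for Lce1h. S100a6 is expressed in many tissues besides skin.

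The remaining cornified envelope genes gave a mixed picture. The envelope proteins Lor (125 in the double knockout, against 115 in the control) and Ppl (251 in the double knockout, against 185 in the control) differed by 0.12 and 0.44 on the log2 scale. Sprr1a, a relative of Sprr2f, read 205 in the double knockout, against 270 in the control, and the late envelope gene Lce1i read 174 in the double knockout, against 275 in the control. On both arrays, 24 of the 47 named genes were below the floor, among them Flg and Ivl, which encode filaggrin and involucrin.

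Genes of the desmosome and of its processing in skin, the setting of corneodesmosin, did not differ by 2-fold in any of 13 measured genes of 22 with a named probe set. Their median was -0.12. Klk8, a serine protease of the kallikrein family, came closest, at 458 in the double knockout, against 229 in the control (1.996-fold). Dsp and Pkp2, which encode desmoplakin and plakophilin 2, differed by 0.62 and 0.63. Prss8 had the largest downward difference, at 2984 in the double knockout, against 4649 in the control (-0.64). Of the 13 measured genes, 5 were above 0 and 8 below. Below the floor on both arrays were 9 genes, including Klk5 and Klk7, proteases that cleave corneodesmosin, and Dsc1 and Dsg1a, which encode cadherins of skin desmosomes.

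Among keratins, 1 of 9 measured genes was past 2-fold upward and 0 downward, with a median of 0.35, or -0.33 under marker recentring. Krt6a, a keratin of injured and appendage epithelium, read 180 in the double knockout, against 22.1 in the control, at least 3.43-fold higher. The other Krt6a probe sets were below the floor on both arrays. Krt19, a keratin of simple epithelia, read 211 in the double knockout, against 121 in the control. Krt1 and Krt14, keratins of the upper and basal epidermis, were below the floor on both arrays. Krt10, also a keratin of the epidermis, was above it on both, at 295 in the double knockout, against 335 in the control.

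Keratinocyte markers were read beside Crct1 and Cdsn because skin cells express both genes. Of 18 keratinocyte markers with a named probe set, 7 were measured, 0 differed by 2-fold and their median was 0.22, or -0.46 under marker recentring. Their summed signal over all 18 was 1279 in the double knockout, against 1163 in the control. Krt1, Krt14, Flg, Ivl, Dsg1a and Trp63 were among 11 below the floor on both arrays. Others were measured on both, among them Sbsn (432 in the double knockout, against 339 in the control) and Krt10 (295 in the double knockout, against 335 in the control). Krt5, a marker of basal cells, read 67.3 in the double knockout, against 41.5 in the control. The part of skin cells in the signals of Crct1 and Cdsn was not tested.

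The relatives and receptors of Nell2 were higher in part. Of 10 measured genes among 14 listed NELL, Robo, Ros1 and Slit genes with the GTPase-activating Srgap proteins and protein kinases C, 2 were past 2-fold upward and 0 downward. The median was 0.52, or -0.16 under marker recentring. Srgap3, which acts downstream of Robo receptors, read 403 in the double knockout, against 119 in the control (3.38-fold). Robo1 read 608 in the double knockout, against 293 in the control (2.07-fold), and was under 2-fold after each of the other scalings, the lowest of the log2 values being 0.37 under marker recentring. The other probe sets of Srgap3 and Robo1 were below the floor on both arrays.

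The receptors through which Nell2 is known to act were not measured. Robo3 read 42.7 in the double knockout, against 32.7 in the control, and Ros1 read 26.9 in the double knockout, against 31.0 in the control, all below the floor. Nell1, the close relative of Nell2, read 5.69 in the double knockout, against 8.99 in the control. Robo2, a receptor found at the podocyte slit diaphragm, read 62.7 in the double knockout, against 42.5 in the control, and its ligand Slit2 read 604 in the double knockout, against 623 in the control.

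**Figure D3:**
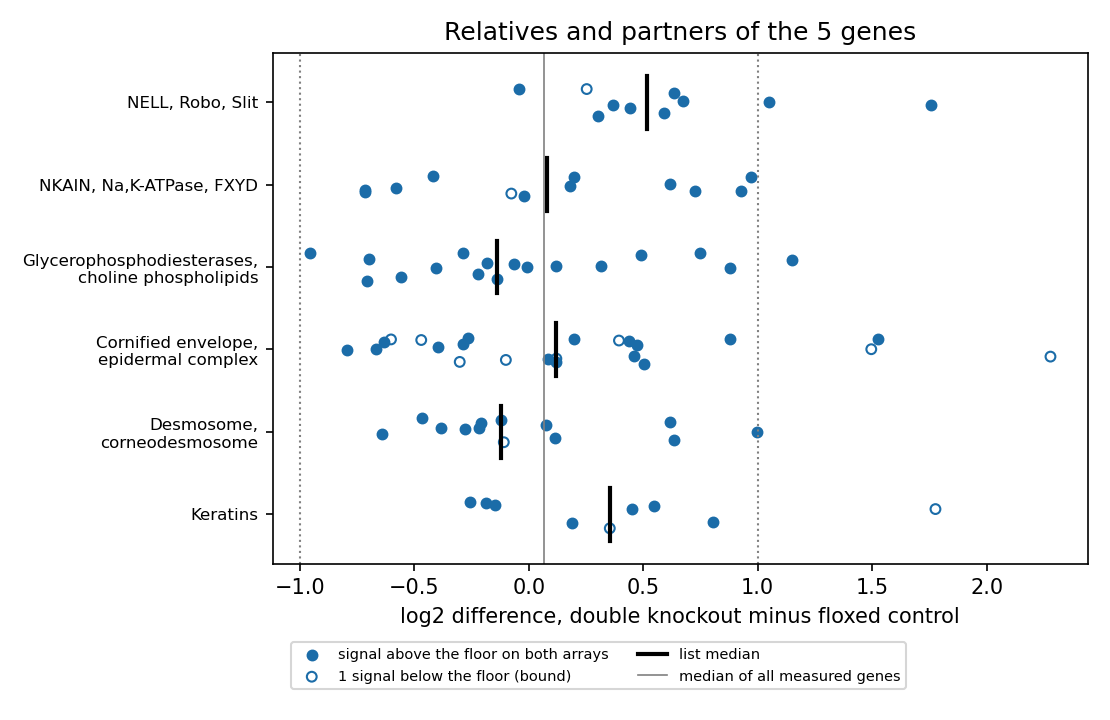
log2 difference of each measured gene in 6 lists of relatives and partners of the 5 genes (the 5 genes themselves left out), with black bars for list medians, dotted lines at 2-fold and open circles where 1 signal was below the floor. Points past 2-fold are few, with Srgap3 and Robo1, Gdpd5, the 3 genes Sprr2f, S100a6 and Lce1h, and Krt6a on the right and 0 on the left.

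Relatives and partners of Nkain4 in the NKAIN family and the sodium pump differed by less than 2-fold. Of 12 measured genes of 13 with a named probe set, 0 were past 2-fold either way and the median was 0.08, with 6 above 0 and 6 below. That median was below 0 with the arrays centred on the median or the 75th percentile, after quantile normalization and under marker recentring. Nkain1 read 495 in the double knockout, against 431 in the control, and Nkain2 read 121 in the double knockout, against 79.3 in the control. Atp1b1, the subunit that NKAIN proteins bind, read 23332 in the double knockout, against 31138 in the control (-0.42), and Atp1b2 read 1266 in the double knockout, against 666 in the control (0.93). The regulators Fxyd5, Fxyd2 and Fxyd4 differed by 0.97, -0.58 and -0.72. Fxyd2 and Fxyd4 are genes of tubule segments, whose marker lists were lower on the same array. The part of tubule cells in the differences of Fxyd2 and Fxyd4 was not tested.

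Gdpd5, a relative of Gdpd2 that cleaves glycosylphosphatidylinositol anchors and glycerophosphocholine, was the 1 gene past 2-fold among 17 measured glycerophosphodiesterases and enzymes of choline phospholipids. It read 1286 in the double knockout, against 579 in the control (2.22-fold, 1.15 on the log2 scale), and 0.47 on that scale under marker recentring. Gdpd1 read 222 in the double knockout, against 132 in the control (0.75), Gdpd3 read 122 in the double knockout, against 148 in the control (-0.29), and Gde1 read 3287 in the double knockout, against 4355 in the control (-0.41). The list median was -0.14, and Enpp6, which cleaves glycerophosphocholine, had the largest downward difference, at 1617 in the double knockout, against 3136 in the control (-0.96). The relatives of Gdpd2 went both ways.

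Markers of cells that use Nell2, Nkain4 or Gdpd2 elsewhere were read as well. Of 18 neuronal and glial markers with a named probe set, 12 were below the floor on both arrays, among them Snap25, Syt1 and Tubb3. Of the 6 measured, 0 were at least 2-fold higher, with a median of -0.18, or -0.86 under marker recentring. Above 0 were 3 of these 6, Rbfox3 (0.56), Dbh (0.50) and Stmn2 (0.29). The 3 below 0 were Aldh1l1 (-1.33), Fabp7 (-0.85) and Sox10 (-0.65). The summed signal of all 18 was 3824 in the double knockout, against 8072 in the control. Most of it came from Aldh1l1, an enzyme of folate metabolism also made outside the brain (2648 in the double knockout, against 6658 in the control). Of 9 osteoblast markers with a named probe set, 5 were measured with a median of -0.43, which was 0.66 when the 60th percentile served as floor and -1.11 under marker recentring. Among them were Col1a1, a chain of collagen I, at 1.54, and Alpl, alkaline phosphatase, at -1.01 on the log2 scale. The osteoblast markers summed to 12155 in the double knockout, against 13644 in the control, and Ibsp and Dmp1, genes of mineralising bone, were below the floor on both arrays. The part of any cell type in the differences of the 5 genes was not tested.

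The 5 genes lie on 5 chromosomes: Nell2 on 15, Nkain4 on 2, Gdpd2 on X, Crct1 on 3 and Cdsn on 17. For each, the 5 coding genes with a named probe set on either side were read, in the order of the RefSeq gene table. Of these 50 neighbours, 34 were measured, 0 were past 2-fold upward and 1 downward, with a median difference of 0.04. Over all measured genes, 3.53% were past 2-fold upward and 2.87% downward, so with 34 genes nothing is read from these counts. The lower neighbour was H2-Q10, a class I histocompatibility gene near Cdsn from a family of closely similar genes, at 78.4 in the double knockout, against 231 in the control (2.95-fold lower). The genes next to Nell2 were Tmem117 (162 in the double knockout, against 165 in the control) and Dbx2, which was below the floor on both arrays. Next to Nkain4 were Arfgap1 (996 in the double knockout, against 767 in the control) and Birc7, below the floor on both arrays. Next to Gdpd2 were Kif4 (128 in the double knockout, against 107 in the control) and Dlg3 (412 in the double knockout, against 410 in the control).

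The neighbours of Crct1 are mostly genes of the epidermal differentiation complex. Of 10, 7 were below the floor on both arrays, and the 3 measured were Lce3b (131 in the double knockout, against 203 in the control), Lce3f (37.3 in the double knockout, against 56.4 in the control) and Tchh (240 in the double knockout, against 173 in the control). Next to Cdsn were Psors1c2 (13.1 in the double knockout, against 3.46 in the control) and 2300002M23Rik. Both were below the floor on both arrays, so neither was measured. None of the measured neighbours of Crct1 or Cdsn was 2-fold higher, beside 3.53% of all measured genes, so nothing is read from this.

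**Figure D4:**
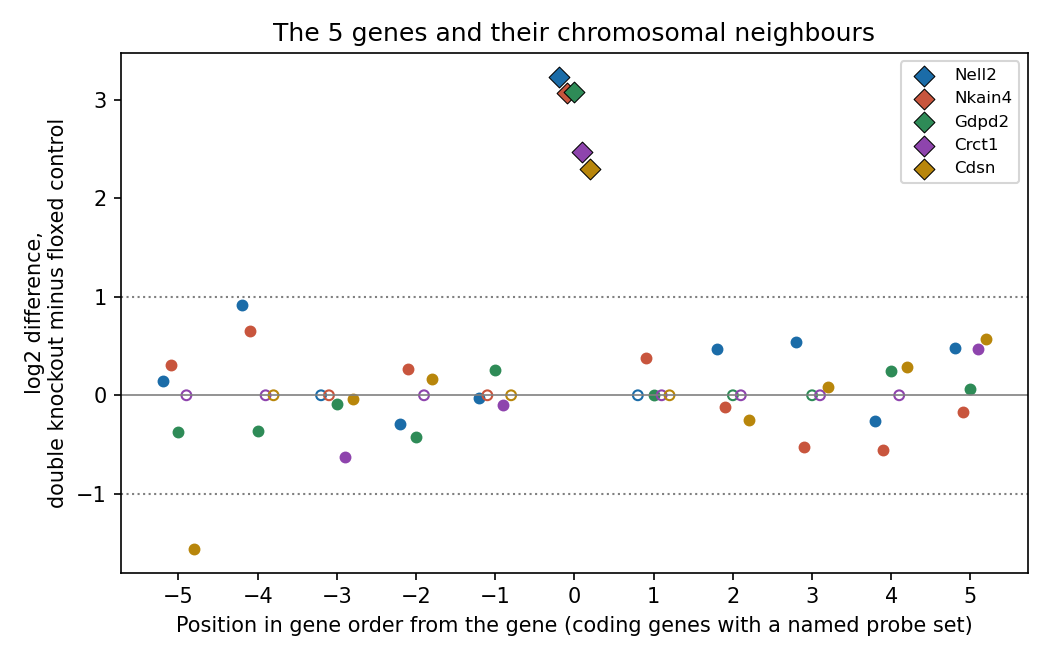
log2 difference of the 5 genes (diamonds, at position 0) and of the 5 coding genes on either side in gene order (circles, open where both signals were below the floor), coloured by gene, with dotted lines at 2-fold. The diamonds lie between 2.30 and 3.23 and all measured neighbours lie at or below 0.92.

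The sizes depended on how low signals and scaling were treated. With the floor at the 60th percentile of signals, 181, the differences were 2.25 for Nell2, 2.28 for Nkain4, 1.30 for Gdpd2, 0.70 for Crct1 and 0.52 for Cdsn on the log2 scale, those of all 5 being lower bounds since every control signal was under that floor. Marker recentring took 0.68 from every gene and left 2.55 for Nell2, 2.38 for Nkain4, 2.40 for Gdpd2, 1.79 for Crct1 and 1.61 for Cdsn. Under it, 60 of all measured genes were at least 2-fold higher and all 5 of these genes were among those past that size. Of all genes past 2-fold, 55.1% were higher as reported, 38.6% with each array centred on its median or its 75th percentile, 45.0% after quantile normalization, 43.4% after removal of the loess trend and 2.14% after marker recentring. For Nell2 the dimmer probe set gave 1.48 in place of 3.23.

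**Figure D5:**
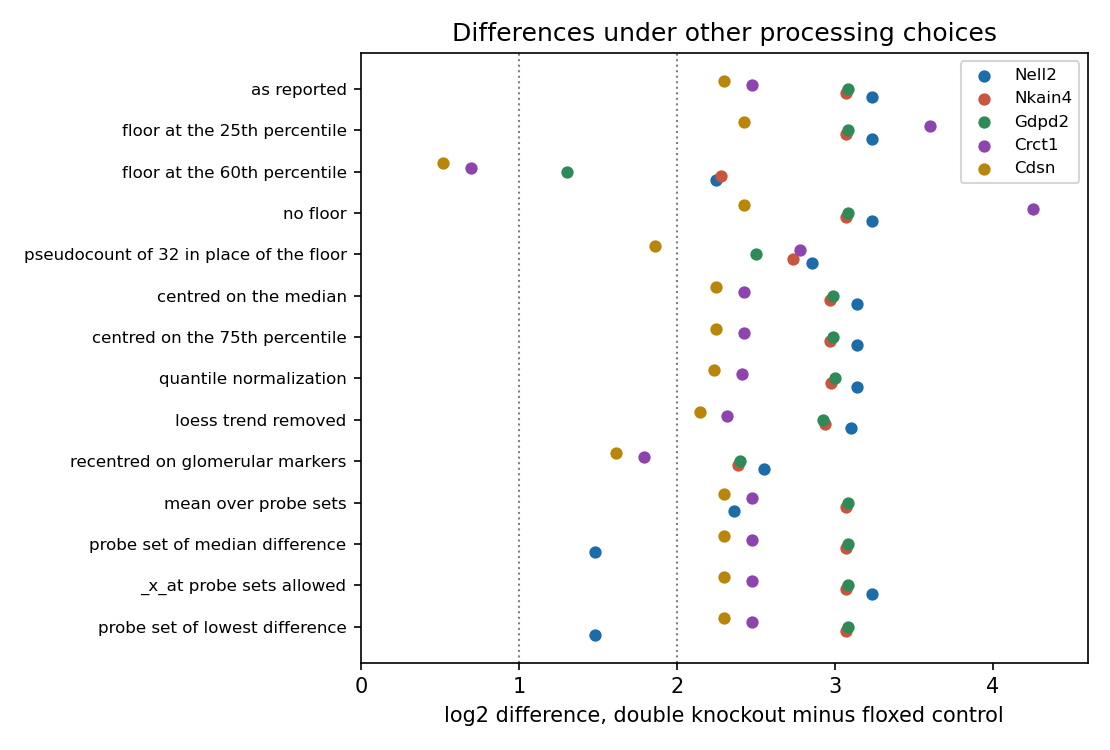
log2 difference (double knockout minus floxed control) of the 5 genes, 1 colour each, under each processing choice (rows), with dotted lines at 2-fold and 4-fold. All values lie above 0; the floor at the 60th percentile puts Crct1 at 0.70 and Cdsn at 0.52, and without a floor Crct1 reads 4.25.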

How the data were processed

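Signals from 2 arrays, 1 per genotype, were used as deposited. They are MAS5 intensities on a linear scale, per the submitters' processing notes; the version is not given in the sources used here. From the values, the mean intensity without the lowest and highest 2% was 500.0 on both arrays. The number of arrays limits the precision. Detection calls were not used here.

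After 64 control probe sets were left out, 45037 remained, of which 34945 had 1 gene symbol in GEO's platform annotation, 932 several and 9160 none. Each gene took its brightest probe set, without _x_at sets where another existed. The floor was the mean over arrays of the 40th percentile of signals; 13290 genes reached it on at least 1 array. Differences are log2, double knockout minus floxed control. The 5 genes, the 19 lists and the counting rules were chosen with earlier results of these data known. Other genes named are the deleted genes, the 3 nearest to each of the 5 in signal and difference, the nearest chromosomal neighbours, and list members past 2-fold, with the largest difference or of known role; those of known role were picked after their values were seen. Neighbours came from RefSeq GRCm38.p6, in which all 5 were found; promoters are RefSeq's. Alternatives covered floors, scalings, probe set choices and the filter on low signals. Steps were tested on simulated data, with changes planted only in genes whose control signal was well above the floor. All 5 genes had lower control signals than those, so their setting was not covered. Python 3.11.15, pandas 2.3.3, numpy 2.4.6 and statsmodels 0.14.6 were used.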

Additional observations from a re-analysis of the deposited data

How the results depend on the processing

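All 5 genes were at least 2-fold higher under 12 of the 13 alternatives run, and 3 were when the floor stood at the 60th percentile. The number at least 4-fold higher was 2 with that floor and 3 under recentring on glomerular markers, a shift that lowers every gene alike. Of all measured genes, 469 were at least 2-fold higher as reported, 274 under that same floor, 60 after that recentring, 300 when each gene took its probe set of median difference and 265 when it took its lowest one. None of the 5 genes changed direction under these alternatives, but they were chosen for large upward differences, so nothing is read from this. Nkain4, Gdpd2, Crct1 and Cdsn have 1 probe set each, so the choices of probe set could not move them. A higher floor shortens differences by construction, since all control signals of the 5 genes were at or below 105. The list medians of the NKAIN and cornified envelope genes turned sign under 7 and 5 alternatives, those of the urothelial and lymphocyte markers under 6 and 4, and those of the podocyte, keratinocyte, keratin, osteoblast and NELL and Robo lists under 1 each. No paired analysis was possible because each genotype had 1 array.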

Other observations

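Lists of other cells that sieved glomeruli could hold were read for completeness. Of 11 urothelial markers, cells that line the renal pelvis, 7 were measured with a median of 0.08 (-0.60 under marker recentring), 0 of them past 2-fold upward and 1 downward. That was Upk1b, a uroplakin, at -1.10 on the log2 scale. Of 8 adipocyte markers with a named probe set, 5 were measured with a median of 0.78, which was 0.10 under marker recentring, 0.11 with the floor at the 60th percentile and 0.29 with the probe set of lowest difference, and 1 was at least 2-fold higher, Fabp4, a fatty acid carrier also made by glomerular endothelium, at 1.15, while Adipoq and Lep, which encode adiponectin and leptin, were below the floor on both arrays. Macrophage markers had a median of 0.87, or 0.18 under marker recentring, with 15 of 15 above 0 and 5 at least 2-fold higher. Of all 13290 measured genes, 7454 were above 0 and 469 at least 2-fold higher. Lymphocyte markers had a median of 0.10 (-0.58 under marker recentring) with 6 of 13 measured.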
